A study of Mus musculus with 10 samples.

Results

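The genes described here are 40 genes of mitosis and cytokinesis, the steps in which a cell separates its copied chromosomes and divides. They were chosen by name, with earlier results of these data known, as probe sets whose only gene symbol is one of 40 listed symbols. All 40 were found, each with 1 probe set, among 22180 genes measured in the series. Affymetrix whole-transcript arrays had been run on RNA from 10 pieces of jejunum of female mice, 1 array per sample. In the 5 knockout samples, numbered 1 to 5, both copies of Pcyt1a carried LoxP sites and VilCreERT2 was present, a tamoxifen-dependent Cre recombinase driven by the villin promoter of gut epithelium. The 5 control samples, numbered 6 to 10, carried the LoxP sites without the recombinase. Loss of Pcyt1a and presence of the recombinase go together in these groups and cannot be told apart. All mice were 10 to 12 weeks old, were given tamoxifen over 5 days and a high fat diet over 4, and the samples were collected after an overnight fast, per the labels' protocols. From each, 3 cm of the middle of the small intestine was taken. Pcyt1a encodes the enzyme that sets the pace of phosphatidylcholine synthesis from choline. The labels of the series also mention re-feeding, and those of the controls lack of phosphatidylcholine synthesis, both of which conflict with the sample titles used here. The piece holds every layer of the gut wall, while the recombinase acts in the epithelium.

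In the small intestine, dividing cells lie in the crypts, where stem cells and their transit-amplifying daughters cycle, and cells that reach the villus have left the cell cycle. Entry into mitosis needs cyclin-dependent kinase 1 with its cyclins, helped by Polo-like and Aurora kinases. The spindle then attaches to kinetochores, the checkpoint holds the cell until every chromosome is attached, the anaphase-promoting complex releases it, and the midzone of the spindle guides the cut between the daughter cells. Transcripts for most of these proteins accumulate together late in the cycle and are nearly absent from resting cells. In a tissue piece, a larger number of dividing cells and more RNA per dividing cell cannot be told apart.

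The arrays had similar distributions, with a median log2 intensity of 5.77 to 5.89 over all genes. Pcyt1a read 7.14, 7.80, 7.30, 7.54 and 7.53 on knockouts 1 to 5 and 9.55, 9.25, 9.50, 9.18 and 9.48 on controls 6 to 10. No knockout reached the lowest control, and knockout 2 was the highest knockout. The difference in log2 intensity was -1.93 (SE 0.13), with an adjusted p of 9.577e-05 from limma. Absorptive enterocyte markers (15 of 15 measured, among them Vil1, Alpi and Fabp2) had a mean log2 intensity of 12.35 to 12.61 on the knockouts and 12.43 to 12.65 on the controls. Knockout 2 and control 6 stood apart from the other arrays of their groups in the genes described here, as given below.

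All 40 genes had a higher mean in knockouts than in controls, although 0 of 40 passed the threshold of an adjusted p under 0.05 over all genes. The differences, given throughout as log2 fold change of knockout minus control, ran from 0.38 for Spc25 to 1.15 for Ccna2. Their median was 0.80, a 1.74-fold difference, against a median of -0.01 over all genes. The adjusted p-values lay between 0.111 and 0.245 (limma). Over all genes, 0.0271% were called at that threshold, and a positive difference was found for 46.8% of genes. At an unadjusted p under 0.05 the fit had 40 of 40 of these genes as higher, against 8.29% of all genes. For 13 of the 40 the lowest knockout lay above the highest control, against 1.64% of all genes, and the gap between them was 0.01 to 0.29 on the log2 scale. Those genes were Plk1, Melk, Incenp, Cenpe, Ndc80, Nuf2, Kif11, Kif4, Tpx2, Kif20b, Ect2, Prc1 and Shcbp1. A difference at least as large as the median of the 40 was seen in 0.528% of all genes. The 40 were listed with earlier results of these data known and varied together across arrays, so these shares only describe the list.

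**Figure D1:**
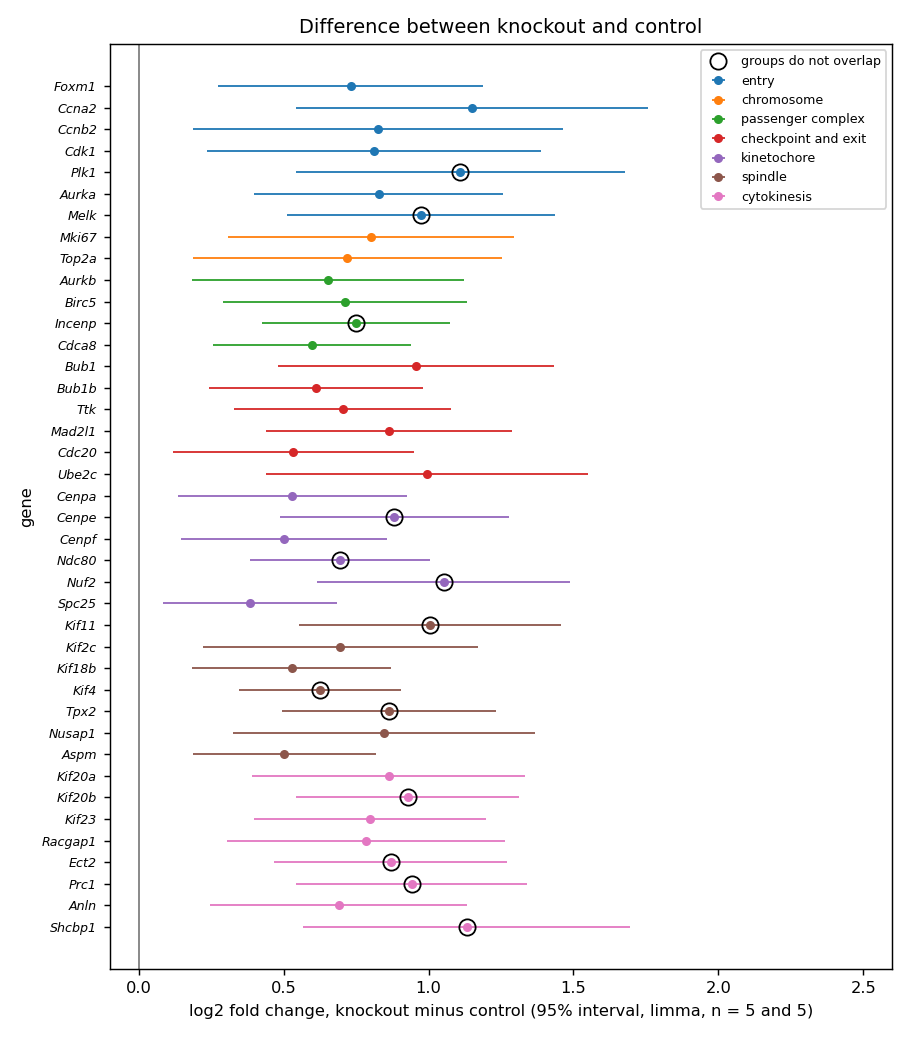
Log2 fold change of each of the 40 genes, knockout minus control, with its 95% interval from limma (5 arrays per group). Colours mark the role in mitosis and black rings the 13 genes whose groups did not overlap. All intervals lie above 0, from 0.38 for Spc25 to 1.15 for Ccna2.

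Arrays of the same group were not alike. Knockout 2 was the lowest knockout for 40 of 40 genes, and control 6 the lowest control for 37 of 40. Knockout 2 lay above every control for 13 genes and below the highest control for the other 27. Knockouts 1, 3, 4 and 5 all lay above every control for 38 genes, against 5.67% of all genes, with Ccnb2 and Aurkb as the exceptions. The mean of the 40 genes was 7.81, 7.75, 7.78 and 7.49 on knockouts 1, 3, 4 and 5, and 6.93 on knockout 2. It was 6.24 on control 6 and 6.96, 6.76, 6.89 and 6.99 on controls 7 to 10. Without knockout 2, 35 of 40 genes rose at an adjusted p under 0.05 (limma), against 1.78% of all genes called higher in that fit, and the median difference was 0.96. Since knockout 2 was the lowest knockout for every gene, leaving it out had to raise every difference. In that fit the Paneth cell markers listed below had a median of 0.80, against 0.39 with all arrays. The 5 that still missed it were Ccnb2, Aurkb, Cdc20, Cenpf and Aspm, with adjusted p-values of 0.0540 to 0.0991. Without control 6 the median was 0.66 and 0 genes were called. With any other single array left out, knockout 2 apart, 0 genes were called as well.

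**Figure D2:**
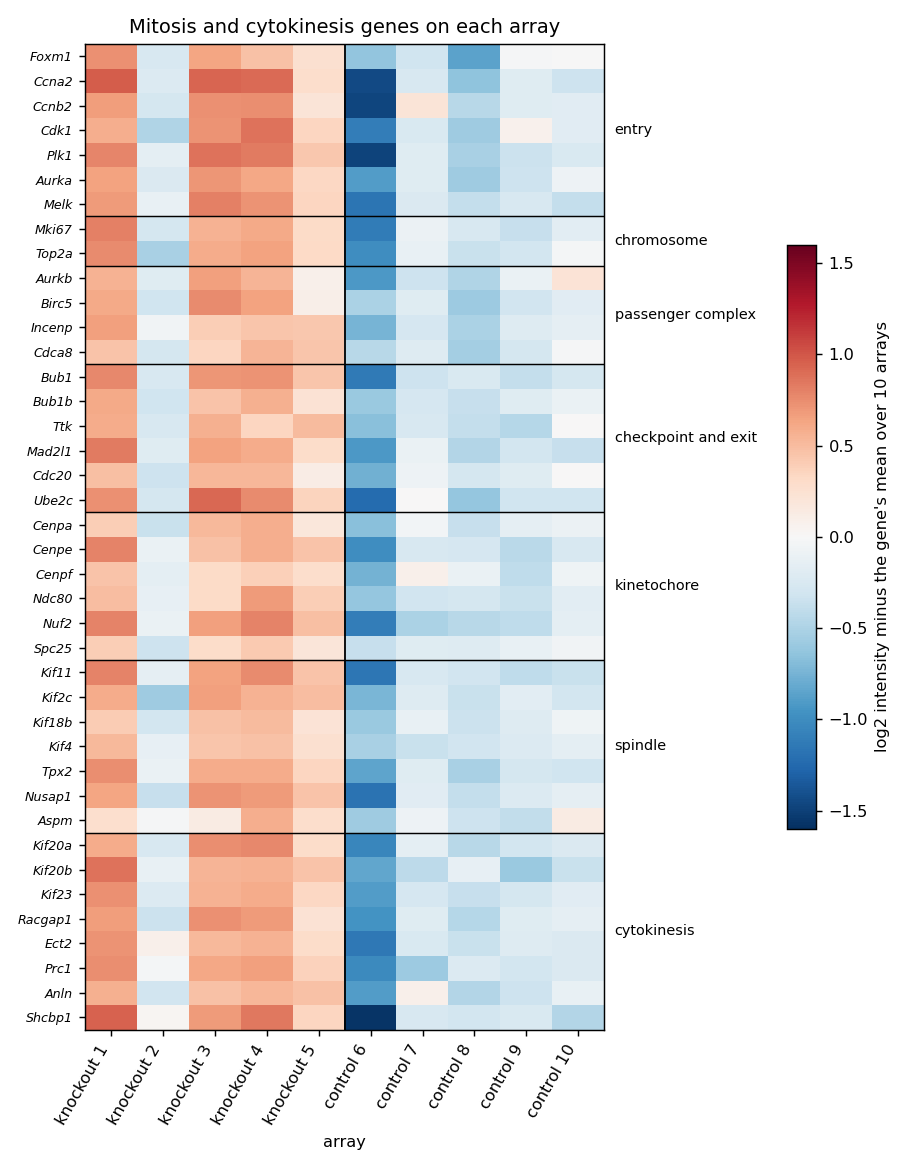
Log2 intensity of the 40 genes (rows, by role) on the 10 arrays (columns), each gene centred on its mean over the arrays. Red is above and blue below that mean. Knockouts 1, 3, 4 and 5 are above the mean for every gene, knockout 2 lies near the controls, and control 6 has the lowest values, with medians of -0.24 and -0.91 for those last 2 arrays.

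Genes that are transcribed late in the cell cycle often carry a pair of promoter elements. The cell cycle genes homology region (CHR), with the letters TTTGAA, is bound by the complexes that silence these genes in resting cells and activate them before mitosis, and CCAAT boxes upstream of it are bound by NF-Y. RefSeq promoter windows (assembly GRCm38.p6, 250 bases before to 50 after the annotated start) were at hand for 33 of the 40 genes. Those without an entry were Aurkb, Ccna2, Foxm1, Incenp, Kif20a, Shcbp1 and Tpx2. The stretches from 100 bases before to 50 after the start are shown for 6 genes, 5 with both elements, taken from 4 roles, and Nuf2 with neither. Capitals mark CHR and CCAAT letters on either strand, so that the reverse complements TTCAAA and ATTGG are also in capitals, and each stretch is written along its gene.
Plk1 (chr7:122159335-122159484, plus strand): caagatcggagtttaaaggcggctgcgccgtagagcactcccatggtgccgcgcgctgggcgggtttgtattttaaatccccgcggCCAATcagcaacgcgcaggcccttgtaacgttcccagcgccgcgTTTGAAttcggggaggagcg
Ccnb2 (chr9:70421505-70421654, minus strand): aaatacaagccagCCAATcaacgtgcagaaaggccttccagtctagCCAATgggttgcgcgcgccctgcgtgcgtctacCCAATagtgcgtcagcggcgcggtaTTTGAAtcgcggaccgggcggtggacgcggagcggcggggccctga
Ttk (chr9:83834589-83834738, plus strand): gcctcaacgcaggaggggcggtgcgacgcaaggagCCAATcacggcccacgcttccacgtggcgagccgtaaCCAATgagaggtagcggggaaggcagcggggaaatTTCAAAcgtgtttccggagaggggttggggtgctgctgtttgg
Kif11 (chr19:37376282-37376431, plus strand): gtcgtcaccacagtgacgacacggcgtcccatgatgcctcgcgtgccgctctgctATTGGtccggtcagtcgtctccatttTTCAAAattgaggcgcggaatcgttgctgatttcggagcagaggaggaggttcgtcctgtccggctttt
Prc1 (chr7:80294351-80294500, plus strand): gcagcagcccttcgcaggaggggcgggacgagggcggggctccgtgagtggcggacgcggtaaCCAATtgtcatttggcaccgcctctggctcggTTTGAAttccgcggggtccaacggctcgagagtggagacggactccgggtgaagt
Nuf2 (chr1:169531415-169531564, minus strand): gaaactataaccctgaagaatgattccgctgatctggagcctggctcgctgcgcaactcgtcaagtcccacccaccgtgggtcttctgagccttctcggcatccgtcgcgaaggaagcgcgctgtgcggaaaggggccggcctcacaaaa

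The CHR letters occurred on either strand in 26 of 33 windows (78.8%), against 18.5% of the windows of 17491 protein-coding genes. Within 40 bases of the start on either side they were in 23 of 33 (69.7%), against 3.70%. In Plk1 the match began 30 bases after the start, in Ccnb2 at 4, in Ttk at 7, in Kif11 at -19 and in Prc1 at -5, where negative numbers lie upstream. CCAAT was found in 24 of 33 windows (72.7%, against 42.3%) and more than 1 box in 17 (51.5%, against 14.6%). Both elements were in 22 windows (66.7%, against 7.40%), and their letters overlapped in 1. Ccnb2 had 3 CCAAT boxes in the stretch above, beginning at -87, -54 and -21. For comparison, the letters TTCCCGC, or GCGGGAA on the other strand, of the E2F site of S phase genes were in 0 of 33 windows of these genes, 11 of 23 of a list of DNA replication genes (47.8%) and 6.84% of protein-coding genes. Other mitosis genes, listed below, held CHR letters in 36 of 77 windows (46.8%), CCAAT in 51 (66.2%), both in 26 (33.8%) and the E2F letters in 17 (22.1%). The DNA replication list held CHR letters in 4 of 23 windows (17.4%) and the list of anaphase-promoting complex subunits in 2 of 15 (13.3%). The 26 genes with CHR letters had a median difference of 0.71 (0.38 to 1.11) and the 7 without them 0.88 (0.71 to 1.05). A match is a description of letters in a window, and these arrays do not measure binding.

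**Figure D3:**
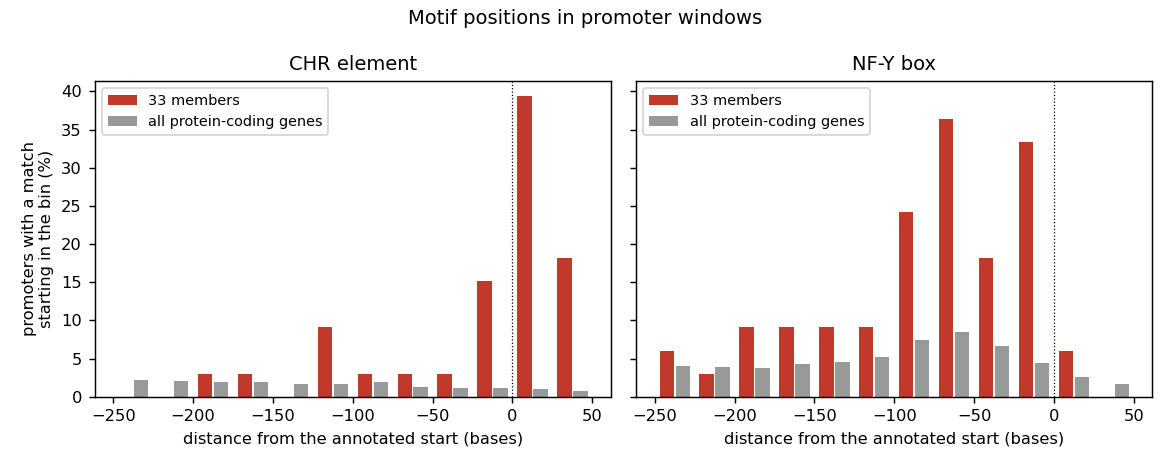
Share of promoter windows (%) with a CHR match (left) or an NF-Y box match (right) beginning in each 25-base bin, by distance from the annotated start in bases. Red bars stand for 33 of the genes described here and grey bars for all protein-coding genes. The CHR matches of the red bars gather just after the start, with 39.4% of windows in the first bin downstream against 1.05% of all genes.

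Among the genes that drive entry into mitosis, the 7 differences had a median of 0.83. Plk1, the Polo-like kinase that acts from centrosome maturation to cytokinesis, read 8.70, 7.76, 8.78, 8.75 and 8.35 on knockouts 1 to 5 and 6.43, 7.72, 7.40, 7.57 and 7.67 on controls 6 to 10. Its groups did not overlap, although knockout 2 was only 0.04 above the highest control, and the difference was 1.11 (SE 0.26, limma adjusted p = 0.129). Melk, a kinase found in cycling cells, read 8.06, 7.25, 8.18, 8.10 and 7.72 on knockouts 1 to 5 and 6.20, 7.14, 6.99, 7.12 and 6.99 on controls 6 to 10. Every knockout was again above every control, with a difference of 0.97 (SE 0.21, limma adjusted p = 0.120). Ccnb2, the cyclin B2 partner of Cdk1, had the largest p in this role, and read 9.12, 8.17, 9.18, 9.19 and 8.65 on knockouts 1 to 5 and 6.98, 8.66, 8.01, 8.26 and 8.27 on controls 6 to 10. Control 7 lay among the knockouts and control 6 far below the rest, and the difference was 0.83 (SE 0.29, limma adjusted p = 0.239). The largest difference of the 40 was that of Ccna2, the cyclin of S phase and early mitosis, with a knockout mean of 9.02 ± 0.53 and a control mean of 7.87 ± 0.52 (SD, n = 5 arrays). The transcription factor Foxm1, which activates many of the other genes, differed by 0.73 (SE 0.21), Cdk1 by 0.81 (SE 0.26) and the centrosomal kinase Aurka by 0.83 (SE 0.20).

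Mki67 and Top2a act on the chromosomes themselves. Mki67, whose product Ki-67 coats mitotic chromosomes and is the usual histological marker of cycling cells, read 10.00, 8.91, 9.75, 9.80 and 9.49 on knockouts 1 to 5 and 8.07, 9.10, 8.93, 8.82 and 9.02 on controls 6 to 10. Knockout 2 lay within the range of the controls, and the difference was 0.80 (SE 0.23, limma adjusted p = 0.174). Top2a, the topoisomerase that untangles sister chromatids, read 8.72, 7.44, 8.56, 8.61 and 8.28 on knockouts 1 to 5 and 6.97, 7.84, 7.60, 7.67 and 7.93 on controls 6 to 10. Here knockout 2 was below controls 7 to 10, all above 7.44, and the difference was 0.72 (SE 0.24, limma adjusted p = 0.219).

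The chromosomal passenger complex consists of the kinase Aurkb and its partners Incenp, Birc5 (survivin) and Cdca8 (borealin), and it corrects faulty attachments before moving to the midzone. Incenp, the scaffold, read 7.29, 6.57, 7.03, 7.08 and 7.06 on knockouts 1 to 5 and 5.89, 6.36, 6.12, 6.42 and 6.49 on controls 6 to 10. Its groups were separated by 0.08, with a difference of 0.75 (SE 0.15, limma adjusted p = 0.111). Cdca8 read 6.76, 6.03, 6.65, 6.85 and 6.75 on knockouts 1 to 5 and 5.86, 6.10, 5.77, 6.03 and 6.29 on controls 6 to 10. Knockout 2 lay among the controls and well below the other knockouts, which were at 6.65 or above, and the difference was 0.60 (SE 0.16, limma adjusted p = 0.149). Aurkb had the largest p of the complex and read 7.79, 7.04, 7.89, 7.78 and 7.32 on knockouts 1 to 5 and 6.32, 6.90, 6.75, 7.13 and 7.45 on controls 6 to 10. Control 10 lay above knockouts 2 and 5, and the difference was 0.65 (SE 0.22, limma adjusted p = 0.211). Birc5 differed by 0.71 (SE 0.19).

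The spindle checkpoint and the machinery it restrains gave differences of 0.53 to 0.99, and no gene of this role had separate groups. Mad2l1, which binds and blocks Cdc20, read 7.82, 6.80, 7.63, 7.58 and 7.28 on knockouts 1 to 5 and 6.07, 6.89, 6.52, 6.69 and 6.62 on controls 6 to 10. Only control 7 lay above knockout 2, and the difference was 0.86 (SE 0.20, limma adjusted p = 0.128). Bub1, the checkpoint kinase at kinetochores, read 7.18, 6.15, 7.11, 7.13 and 6.85 on knockouts 1 to 5 and 5.27, 6.07, 6.16, 6.02 and 6.12 on controls 6 to 10. Control 8 exceeded knockout 2 by 0.01, and the difference was 0.96 (SE 0.22, limma adjusted p = 0.128). Cdc20, the activator of the anaphase-promoting complex, had one of the smallest differences and read 8.16, 7.34, 8.21, 8.21 and 7.79 on knockouts 1 to 5 and 6.90, 7.59, 7.39, 7.48 and 7.68 on controls 6 to 10. Knockout 2 was below controls 7 to 10, and the difference was 0.53 (SE 0.19, limma adjusted p = 0.244). Ube2c, the ubiquitin-conjugating enzyme that works with that complex, had the largest difference of this role, at 0.99 (SE 0.25), against 0.70 (SE 0.17) for the kinase Ttk and 0.61 (SE 0.17) for Bub1b.

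Kinetochore genes spread the most, from 0.38 to 1.05. Nuf2, a subunit of the Ndc80 complex that grips microtubules, read 7.78, 6.88, 7.64, 7.78 and 7.46 on knockouts 1 to 5 and 5.87, 6.48, 6.54, 6.57 and 6.82 on controls 6 to 10. Its groups were separated by 0.06, with a difference of 1.05 (SE 0.20, limma adjusted p = 0.111). Cenpe, a kinesin that carries chromosomes to the spindle equator, read 7.80, 6.90, 7.47, 7.58 and 7.46 on knockouts 1 to 5 and 6.01, 6.75, 6.73, 6.57 and 6.74 on controls 6 to 10. The lowest knockout was 0.15 above the highest control, and the difference was 0.88 (SE 0.18, limma adjusted p = 0.111). Spc25, another subunit of the Ndc80 complex, had the smallest difference of the 40 and read 6.87, 6.15, 6.78, 6.90 and 6.67 on knockouts 1 to 5 and 6.11, 6.29, 6.27, 6.36 and 6.42 on controls 6 to 10. Knockout 2 was lower than controls 7 to 10, and the difference was 0.38 (SE 0.14, limma adjusted p = 0.245). Ndc80 itself stood at 0.69 (SE 0.14), so that 3 subunits of the complex gave differences of 0.38, 0.69 and 1.05. The centromeric histone Cenpa differed by 0.53 (SE 0.18) and the kinetochore protein Cenpf by 0.50 (SE 0.16).

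The spindle role holds motors and microtubule-associated proteins. Tpx2, which activates Aurka and starts microtubules near chromosomes, read 7.98, 7.12, 7.83, 7.82 and 7.57 on knockouts 1 to 5 and 6.39, 7.04, 6.71, 6.95 and 6.91 on controls 6 to 10. The groups did not overlap, and the difference was 0.86 (SE 0.17, limma adjusted p = 0.111). Kif4, a kinesin bound to chromosome arms, read 7.00, 6.35, 6.92, 6.95 and 6.74 on knockouts 1 to 5 and 5.96, 6.12, 6.17, 6.26 and 6.32 on controls 6 to 10. The knockouts were all above the controls by at least 0.03, and the difference was 0.63 (SE 0.13, limma adjusted p = 0.111). Kif2c, a kinesin that shortens microtubules, read 7.58, 6.41, 7.64, 7.54 and 7.47 on knockouts 1 to 5 and 6.25, 6.78, 6.63, 6.81 and 6.69 on controls 6 to 10. Knockout 2 was far below the other knockouts, all of which were at 7.47 or above, and the difference was 0.70 (SE 0.22, limma adjusted p = 0.197). The motor that pushes the poles apart, Kif11, had separate groups, with a mean of 8.20 ± 0.38 over the knockouts and of 7.20 ± 0.37 over the controls (SD, n = 5 arrays). The microtubule bundler Nusap1 differed by 0.85 (SE 0.24), Kif18b by 0.53 (SE 0.16) and the spindle pole protein Aspm by 0.50 (SE 0.14).

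The 8 cytokinesis genes had a median difference of 0.87, and 4 of them had separate groups, against 1.64% of all genes. The kinetochore role had 3 of 6 such genes and the spindle role 3 of 7. Kif20b, a kinesin of the midbody, read 7.49, 6.50, 7.16, 7.18 and 7.08 on knockouts 1 to 5 and 5.79, 6.20, 6.49, 6.03 and 6.26 on controls 6 to 10. Knockout 2 exceeded the highest control, control 8, by 0.01, and the difference was 0.93 (SE 0.18, limma adjusted p = 0.111). Prc1, which bundles the microtubules of the midzone, read 8.27, 7.49, 8.14, 8.18 and 7.89 on knockouts 1 to 5 and 6.50, 6.94, 7.30, 7.23 and 7.29 on controls 6 to 10. The gap between the groups was 0.19, and the difference was 0.94 (SE 0.18, limma adjusted p = 0.111). Anln, the scaffold anillin of the contractile ring, had the largest p of this role and read 7.39, 6.52, 7.30, 7.36 and 7.29 on knockouts 1 to 5 and 5.93, 6.91, 6.36, 6.50 and 6.71 on controls 6 to 10. Control 7 and control 10 lay above knockout 2, and the difference was 0.69 (SE 0.20, limma adjusted p = 0.182). Ect2, the exchange factor that activates RhoA at the cleavage site, had the widest gap of the 40 genes, 0.29, and a difference of 0.87 (SE 0.18). Shcbp1, a protein of the midbody, had a gap of 0.27 and a difference of 1.13 (SE 0.26). Kif23 and Racgap1, which form the centralspindlin complex, were at 0.80 (SE 0.18) and 0.78 (SE 0.22), and Kif20a, which moves the passenger complex to the midzone, at 0.86 (SE 0.22).

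The 40 genes followed each other closely from array to array within each group. After subtraction of the group means, Pearson correlations between 2 genes over the 10 arrays had a median of 0.89 over 780 pairs, with a range of 0.49 to 0.99. The points share their arrays and RNA, so this is a description only. Knockout 2 was the lowest knockout for 40 of 40 genes and control 6 the lowest control for 37. Those arrays weigh heavily on these correlations and on those given next, and no correlation was computed without them. Aspm was the gene least like the mean of the other 39 (r = 0.71), followed by Foxm1 (0.79) and Cdca8 (0.82), and Kif23 (0.99) the most like it. Outside the 40, the genes whose within-group deviations were most like their mean over the 10 arrays were Neil3, a DNA glycosylase (r = 0.996), Pwp1 (0.993), Trim37, a ubiquitin ligase that limits centrosome number (0.991), the checkpoint gene Zwilch (0.988), Syde2 (0.988) and the progenitor transcription factor Myb (0.984). Their differences between the groups were 0.50 (SE 0.18), 0.47 (SE 0.15), 0.75 (SE 0.17), 0.82 (SE 0.20), 0.36 (SE 0.21) and 0.77 (SE 0.28), in the same order. With the mean of all its probe sets Myb was at 0.38.

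Markers of crypt cells varied across the same arrays. Centred on the 10 arrays, the mean of 13 measured Paneth cell markers had its 3 lowest values on control 6 (-1.39), knockout 2 (-1.29) and control 8 (-0.80), and ran from -0.02 to 0.96 elsewhere. The mean of 16 crypt stem cell markers was -0.33 on knockout 2 and -0.69 on control 6, and -0.19 to 0.36 on the others. Of the Paneth markers 12 of 13 were higher in knockouts, 1 at an unadjusted p under 0.05 (median 0.39). Of the stem cell markers 14 of 16 were higher, 5 at an unadjusted p under 0.05 (median 0.31). The share of all genes higher at that p was 8.29%. Among the stem cell markers the smallest p-values were those of Aqp4 at 1.21 (SE 0.23), Cd44 at 0.75 (SE 0.14) and Msi1 at 0.46 (SE 0.11). For these 3 of 16 every knockout lay above every control, against 1.64% of all genes. The stem cell markers that were lower were Lgr5, at -0.42 (SE 0.19), and Rnf43, at -0.17 (SE 0.11). With the Paneth mean as a covariate 23 of the 40 mitosis and cytokinesis genes rose (limma adjusted p under 0.05), against 0.604% of all genes called higher, and the median difference was 0.64. Without knockout 2, control 6 and control 8 it was 0.76, and 19 of 40 rose, against 0.252% of all genes. Among those 3 arrays, knockout 2 lay above control 6 for 40 of 40 genes and above control 8 for 33. Control 6 was the lowest of the 10 arrays for 37 genes. Single arrays are set side by side here and the genes vary together, so these counts are a description only.

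Markers of other cells that could be in the piece were also measured, and 0 of them passed the adjusted threshold (limma). Of all genes, 0.0271% passed it and 8.29% were higher at an unadjusted p under 0.05. Macrophage markers were higher in knockouts for 9 of 9 (5 at an unadjusted p under 0.05), with a mean of 6.96 to 7.61 on knockouts and 6.59 to 7.12 on controls. The smallest p of that list was for Lyve1, at 0.70 (SE 0.13), a marker that is not specific to macrophages. Endothelial markers were higher for 8 of 8 (5 at an unadjusted p under 0.05), at 6.52 to 7.34 and 5.56 to 6.60. On knockout 2, the knockout lowest in the mitosis genes, both of these lists had their highest value of all arrays, 0.54 and 0.75 above the mean of the 10. Fibroblast markers were at 6.87 to 8.28 and 6.38 to 8.22, with 4 of 8 higher at an unadjusted p under 0.05. B and plasma cell markers were at 5.50 to 5.81 on knockouts and 5.42 to 7.21 on controls, high on controls 8 and 9. Markers of germinal centre B cells, which divide fast in gut lymphoid tissue, were at 6.16 to 6.30 and 6.13 to 6.77, with the highest value on control 8. Smooth muscle markers were at 6.83 to 8.31 on knockouts and 6.48 to 10.37 on controls, high on controls 7 and 9 and knockout 1, and T cell markers were at 6.04 to 7.16 and 6.22 to 6.98. The median of the 40 genes was 0.84 without controls 8 and 9, high in B cell markers, and 0.81 without knockout 1, control 7 and control 9, high in smooth muscle markers. The part of macrophages, endothelium, fibroblasts and T cells in the difference was not tested. Enterocyte markers had a median of -0.06, with 1 of 15 lower at an unadjusted p under 0.05, Lct at -0.45 (SE 0.13). Villus tip markers (9.79 to 10.32 and 9.96 to 10.45) had a median of -0.15. Goblet cell markers (10.02 to 10.37 and 10.30 to 10.54) had a median of -0.26, with 4 of 8 lower at an unadjusted p under 0.05. For 2 of them, Muc2 and Fcgbp, every knockout lay below every control. Among all 22180 genes, 1234 were lower at that p and 214 had every knockout below every control.

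**Figure D4:**
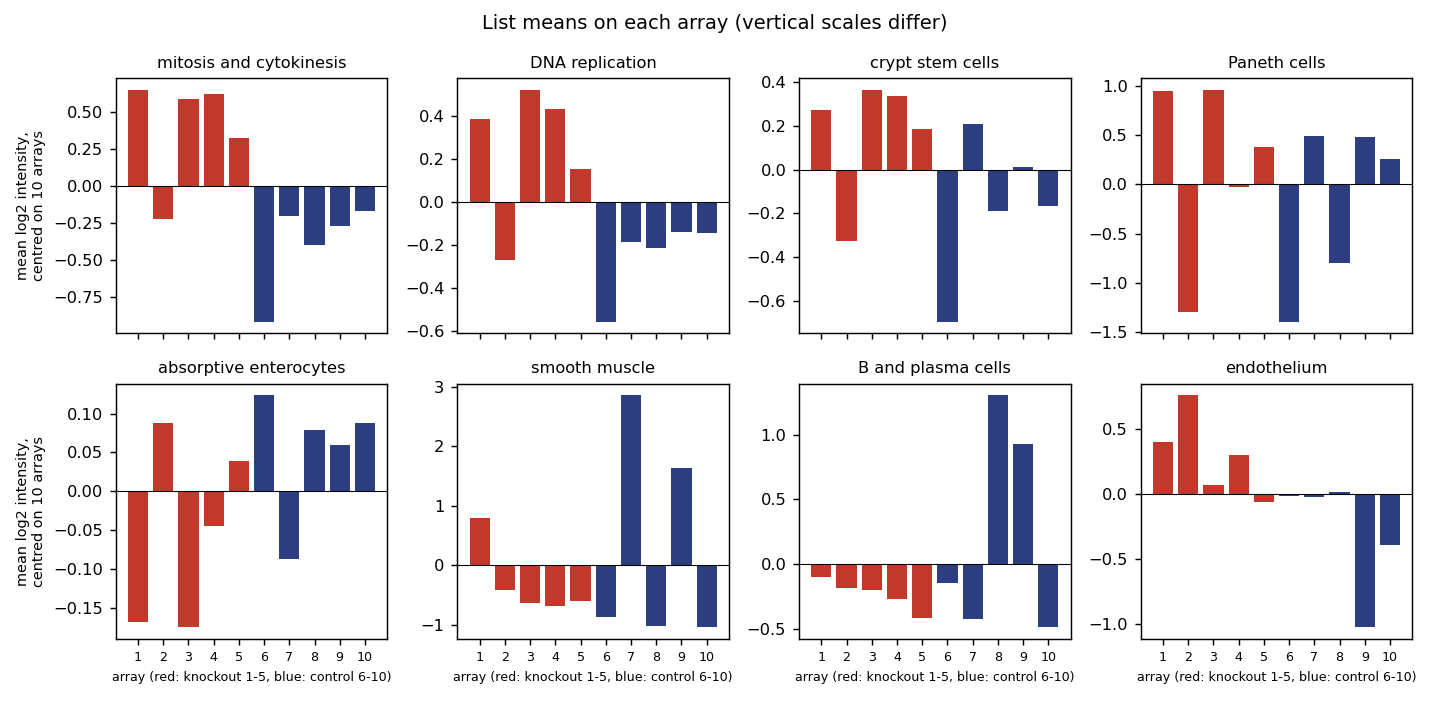
Mean log2 intensity of 8 gene lists on each array, centred on the 10 arrays, with knockouts 1 to 5 in red and controls 6 to 10 in blue. Vertical scales differ between panels. The mitosis and cytokinesis mean is above 0 on knockouts 1, 3, 4 and 5 and lowest on control 6, and the Paneth panel is lowest on knockout 2 and control 6.

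Most other genes of mitosis also had a positive difference. Of 96 listed in 4 groups, 87 were measured, 84 had a positive difference and 0 were called, with 59 higher and 0 lower at an unadjusted p under 0.05 and a median of 0.49. Of all genes, 8.29% were higher at that unadjusted p. Without knockout 2, 42 of the 87 were called, against 1.78% of all genes called higher in that fit. Among other spindle and cytokinesis genes 27 of 27 were positive (median 0.55), and the smallest p-values were those of the spindle motor Kif15 at 0.82 (SE 0.14, limma adjusted p = 0.0808), the hyaluronan receptor and spindle protein Hmmr at 1.02 (SE 0.21) and the centriole gene Sass6 at 0.50 (SE 0.10). Other entry genes had a median of 0.54, with the kinase Mastl at 0.80 (SE 0.17), the kinase Pbk at 0.87 (SE 0.23) and the transcription factor Mybl2 at 0.54 (SE 0.14), or 0.32 with the mean of its probe sets. Other kinetochore and checkpoint genes had a median of 0.47, with Cenpi at 0.86 (SE 0.19), Zwilch at 0.82 (SE 0.20) and Cenpn at 0.57 (SE 0.13), and Cenpw as the 1 negative value, -0.07 (SE 0.22). In the condensin and cohesin list the median was 0.28. Sgo1, which protects centromeric cohesion, was at 0.84 (SE 0.19), the cohesin acetyltransferase Esco2 at 0.76 (SE 0.20) and the condensin subunit Smc2 at 0.72 (SE 0.13), while the cohesin loader Nipbl was at -0.07 (SE 0.11) and the securin Pttg1 at -0.10 (SE 0.13).

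Cell cycle genes of other kinds gave other values. Of all genes, 8.29% were higher at an unadjusted p under 0.05 and 1.78% were called higher without knockout 2. The 16 subunits and partners of the anaphase-promoting complex, which resting cells also express, had a median of 0.16, with 7 higher and 0 lower at an unadjusted p under 0.05, and 0 called with or without knockout 2. Cdc23 was at 0.28 (SE 0.10), Cdc16 at 0.27 (SE 0.10), Anapc15 at 0.31 (SE 0.12), Anapc2 at -0.19 (SE 0.10) and Anapc11 at -0.09 (SE 0.12). Genes of cell cycle exit had a median of -0.10, with 0 of 16 higher and 1 lower at an unadjusted p under 0.05. That gene was Cdkn2d, an inhibitor of cyclin D kinases, at -0.23 (SE 0.10), beside the retinoblastoma gene Rb1 at -0.22 (SE 0.11; -0.41 with the mean of its probe sets), its relative Rbl1 at 0.16 (SE 0.08) and the transcription factor E2f4 at 0.21 (SE 0.12). The 27 measured DNA replication genes were all positive, with 21 higher at an unadjusted p under 0.05 and a median of 0.45. Among them were Rrm1, a subunit of ribonucleotide reductase, at 0.95 (SE 0.22) and the helicase subunits Mcm7 at 0.70 (SE 0.16) and Mcm2 at 0.57 (SE 0.13), and 15 were called without knockout 2. Differences between these lists and the 40 genes were not tested.

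**Figure D5:**
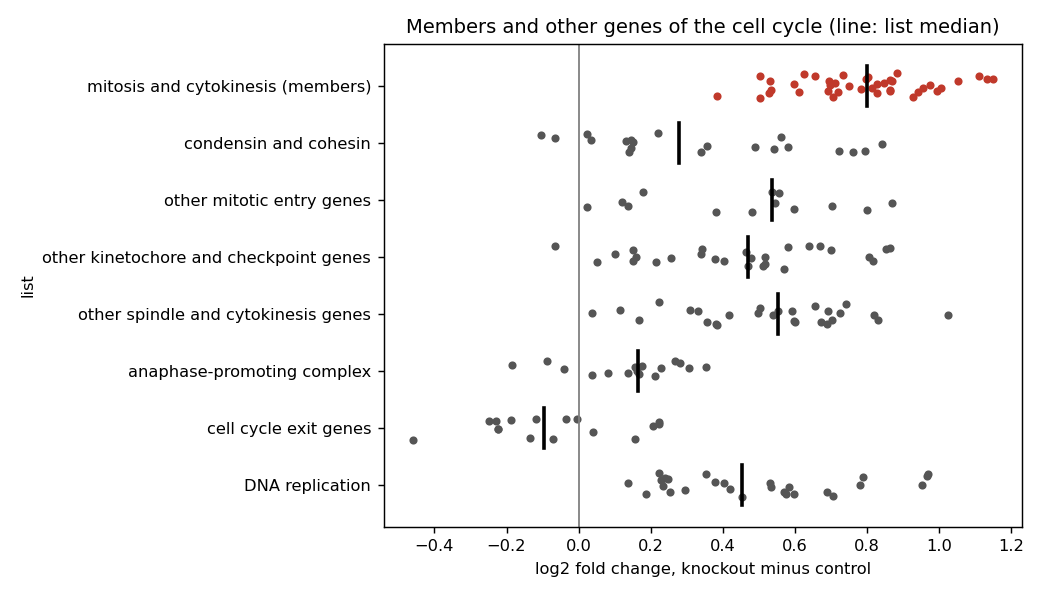
Log2 fold change, knockout minus control, of each of the 40 genes (red) and of the measured genes of 7 other cell cycle lists (grey), with a black line at each list's median. The medians run from 0.80 for the 40 genes to -0.10 for genes of cell cycle exit.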

How the data were processed

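Probe set values on the linear scale were deposited by the authors as intensities. The submitters' processing notes name RMA and, as software, Affymetrix Expression Console, version 1.4.1.46. Arrays were made from 400 ng of total RNA per array. RMA corrects background, equalises the arrays' distributions and summarises probes, which compresses differences of dim genes. The genome build of the probe sets is not given in the sources used here. Log2 was taken first. Of 34472 probe sets, 23521 had 1 gene symbol, and the one with the highest mean was kept per gene, leaving 22180 genes, dim ones included.

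The fit of knockout minus control used limma 3.58.1 (R 4.3.3, two-sided test, Benjamini-Hochberg adjustment over all genes). The limma steps of the main fit were first tried on simulated arrays. Noise there was drawn separately for each gene, whereas the genes described here vary together. The members and lists were chosen with earlier results of these data known. Values on every array were given for the 2 genes with the smallest and the 1 with the largest p in each role; list genes are up to 3 with the smallest p and up to 2 of opposite sign, and the 6 genes most like the members' mean are named. Groups come from sample titles. The labels do not say that each sample is another mouse, so the p-values rest on a spread that may be technical. Having 5 arrays per group limits precision. The fit was repeated in 17 other settings and in 5 more that were chosen after seeing the data.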

Additional observations from a re-analysis of the deposited data

Results flagged for a closer look

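In 120 groups of 5 arrays (40 genes and 20 list means, each in knockouts and in controls), 21 had an array far from the other 4, by Dixon's ratio of gap to range above 0.710. Chance alone would pick out about 1 group in 20, and the genes share arrays, so these are not separate events. Control 6 was the low array for 10 genes. It read 6.43 for Plk1 against 7.40 to 7.72 on the other controls, 6.20 for Melk against 6.99 to 7.14, and 8.07 for Mki67 against 8.82 to 9.10. It was at 5.27 for Bub1, 6.01 for Cenpe, 6.54 for Kif11 and 6.21 for Nusap1. For Kif23 it read 6.73, for Ect2 7.47, and for Shcbp1 4.78, the last against 5.88 to 6.11. Knockout 2 was the low array for 5 genes, at 6.03 for Cdca8, 6.40 for Ttk, 6.41 for Kif2c, 7.03 for Nusap1 and 6.52 for Anln, where the other knockouts were at 7.29 to 7.39.

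Among list means, that of condensin and cohesin was low on knockout 2 (7.485, against 7.80 to 7.91 on the other knockouts) and on control 6 (7.24, against 7.46 to 7.54). Control 6 was also low in the means of other spindle and cytokinesis genes (5.96) and of DNA replication (6.45). Knockout 2 was low in the crypt stem cell mean (7.118, against 7.63 to 7.81), and knockout 1 was high in smooth muscle (8.308, against 6.83 to 7.10).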

How the results depend on the processing

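The 40 genes kept a positive difference in each of 22 alternative settings, and their median stayed between 0.64 and 0.96. All 40 were at an unadjusted p under 0.05 in every setting except without the 3 arrays highest in smooth muscle markers, where 39 were. The number past the adjusted threshold depended on the arrays used. It was 0 of 40 with all arrays and 0 to 35 with any 1 array left out, 35 being without knockout 2. A Paneth covariate gave 23, and leaving out the 3 arrays lowest in Paneth markers gave 19; both settings were chosen after seeing the data. The cause was not tested. Over all genes 6 were called in the fit with all arrays, 2 to 452 with 1 array left out, 2 after median centring, 2 after a further quantile normalisation, 178 with the Paneth covariate, 69 when the Paneth-low arrays were dropped, and 2 when the 3 arrays highest in smooth muscle, or the 2 highest in B cell markers, were dropped. Reversals concerned genes near 0 outside the 40. Cenpw read 0.0079 with array weights, 0.057 when the arrays lowest in Paneth markers were dropped, and -0.20 to 0.16 with 1 array left out (positive at 0.16 for knockout 2 and 0.024 for control 9). Nipbl read 0.018 when the Paneth-low arrays were dropped and -0.12 to 0.0090 with 1 array left out. When the arrays highest in smooth muscle were dropped, Pttg1 was at 0.0050 and Anapc11 at 0.028. The setting with the mean of all probe sets left the 40 genes as they were, each having 1 probe set, but took Myb from 0.77 to 0.38, Mybl2 from 0.54 to 0.32 and Rb1 from -0.22 to -0.41. No paired analysis was possible because knockouts and controls share no replicate number.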
